A study of Arabidopsis thaliana with 6 samples.

Results

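An alternative 3′ splice site is a choice between acceptors at the end of an intron. The 664 annotated sites described here were taken from a junction table of 233559 bins, the stretches into which the authors cut the TAIR10 annotation. The table marks 2620 bins as alternative 3′ splice sites, and a site was kept where the 2 competing forms had counts, the excluded form had a mean of at least 5 reads in each genotype and the included form had a mean of at least 5 reads in either. Of the 2620, 681 had counts for the 2 forms and 17 of these missed the minimum, while 582 had counts for the excluded form only, 962 for the included form only and 395 for neither. Just inside the minimum lay sites of AT1G33050, AT1G48830 and *CLPS3*, each with a mean of 5 excluded reads in *prp40c-1*. Just outside lay sites of *CNGC9* with a mean of 4.67, and of *MYR2* and AT5G38895 with 4.33. The 664 sites lie in 625 genes, 35 of which hold more than 1, and 74 sites therefore share a gene with another.

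Whole seedlings of wild type *Arabidopsis thaliana* (Col-0) were compared with seedlings of *prp40c-1*, a T-DNA insertion allele of *PRP40C* (AT3G19840) in the same ecotype, with 3 biological samples of each genotype and no treatment. Seeds were stratified for 4 days at 4°C and plants were grown at 22°C in continuous white light of 50 μmol m-2 s-1, with harvest between 10 and 14 days. The mutant is a single insertion line, and *PRP40C* RNA was still present in it, at 12.8 ± 1.08 CPM (counts scaled to a common library size) against 25.1 ± 2.75 in wild type (SD, n = 3; log2 fold change -0.97, adjusted p = 2.1e-05 by edgeR's quasi-likelihood test). Counts per gene do not separate full-length from truncated RNA. By RT-PCR across the insertion the authors report null or strongly reduced full-length mRNA, and they describe the mutants as knockouts. Libraries held 34200225 to 40919516 counts on genes, of which none stood apart in depth. The shoot markers *RBCS1A* and *LHCB1.3* were at 11020 CPM or more in every library and the root markers *PYK10*, *IRT1*, *SCR*, *COBL9* and *EXPA7* at 4.12 CPM or more, whereas the flower markers *AP1* and *AP3* were at or below 0.218 CPM and the seed marker *CRA1* at or below 0.469 CPM, and none of the markers with enough counts to be tested passed the test between genotypes.

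In plants, as in other eukaryotes, the acceptor is an AG dinucleotide at the intron end. It is recognised by the small subunit of U2AF, while the large subunit binds the pyrimidine-rich stretch before it and SF1 binds the branch point. PRP40 proteins are known from yeast as components of the U1 snRNP that contact the branch point binding protein, and so lie between the 2 ends of an intron during its definition. Tandem acceptors that lie close together, above all those that repeat the motif NAG, give messenger RNAs that differ by a few bases only, and in coding sequence a difference of a whole number of codons leaves the reading frame intact. At a site with 1 donor and 2 acceptors, the included form is the one that uses the upstream acceptor, nearer the donor, and keeps the stretch between the acceptors, and the excluded form uses the downstream acceptor. In other arrangements the included form is the one whose junction touches the bin. The included share is the included junction reads as a percentage of the included and excluded reads of a library.

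In 591 of the 664 sites the 2 junctions shared 1 donor and ended at 2 acceptors. Another 44 had several junctions with a shared donor, 17 had junctions that shared an acceptor and differed in the donor, and 12 had other arrangements. The label of the table thus did not always mark a choice of acceptor, and at sites with 2 donors, such as those of *ARP9*, AT5G57565 and 1 site of *RS41*, the included share is not the use of an upstream acceptor. An asterisk is carried by 78 of the labels, all of them on the plus strand, and the 80 asterisked alternative 5′ splice sites that passed the same minimum were all on the minus strand, where 43 of them had 1 donor and 2 acceptors. Those 43 are not among the 664.

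The reference sequence around the 591 simple sites was read from TAIR10.1, whose nuclear chromosomes have the coordinates of TAIR10. The introns had GT-AG ends at 587 of the upstream and 588 of the downstream acceptors, and GC-AG ends at 3 of each. In 575 sites the 2 acceptors were exon starts in the RefSeq annotation. The intron measured to the upstream acceptor had a median length of 117 bases, from 52 to 1525. In the 17 bases before the upstream triplet, C and T made up a median of 58.8%.

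The acceptors lay 2 to 338 bases apart, with a median of 5. A distance of 3 bases was the most frequent, with 238 sites or 40.3%, followed by 6 bases with 60 sites, 5 bases with 32 and 4 bases with 26. Distances that are multiples of 3 made up 407 sites or 68.9%. Their share differed with the position in the gene: it was 81.8% of the 391 sites whose alternative stretch lay in coding sequence, 50.4% of the 127 in 5′ UTRs and 41.7% of the 24 in 3′ UTRs. Coding sites are those whose whole stretch is annotated as coding. The share was 27.8% of the 18 sites across a boundary of coding sequence. It was 20.7% of the 29 sites in other exons or introns within the coding span, and 100% of the 2 in noncoding genes. Of the coding sites, 194 were 3 bases apart, and the alternative stretch there is a single codon in length.

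**Figure D1:**
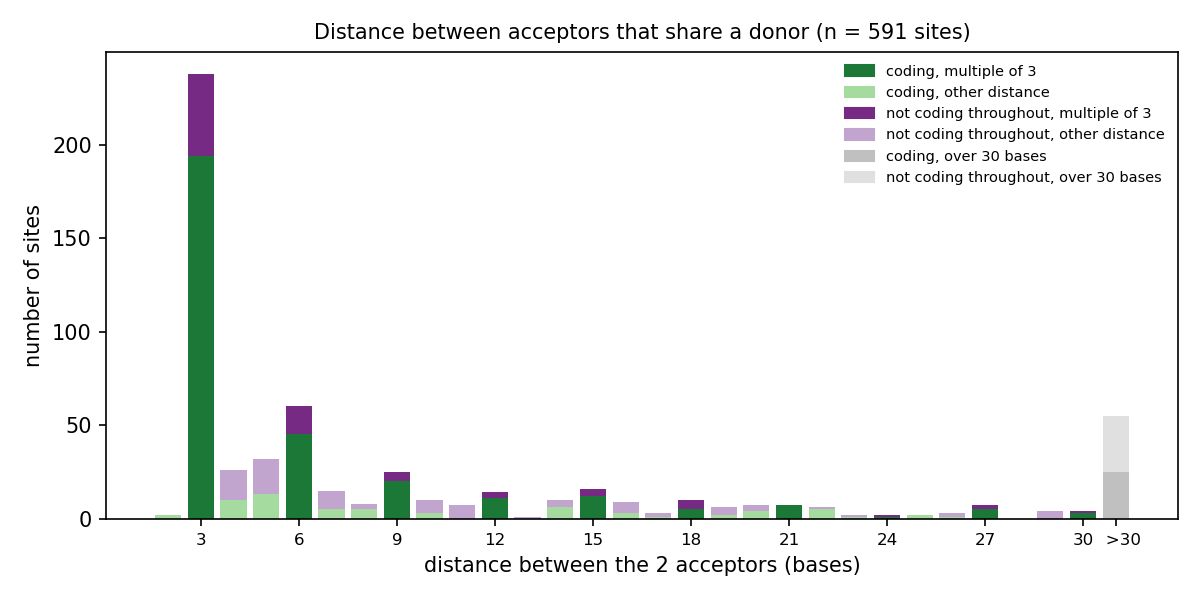
Number of sites (vertical axis) by the distance between the 2 acceptors in bases (horizontal axis), for the 591 sites with 1 donor and 2 acceptors, with distances over 30 pooled in the grey bar. The bar at 3 bases holds 238 sites, and dark colours mark multiples of 3 up to 30 bases, coding or not. Over all distances, multiples of 3 make up 320 of the 391 coding sites.

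The sequences below are of sites with acceptors 3 bases apart. They show the coding site with the most junction reads for each pair of triplets that at least 5 of these sites share. *PSBQA* is added as the only site at this distance with GAG as the upstream triplet. Each window runs 5′ to 3′ on the strand of the gene, from 20 bases before the upstream acceptor to 9 bases after the downstream one, and the capitals mark the 2 triplets that end the intron in one form or the other.
AT4G39200 (chr4:18257813-18257844, plus strand): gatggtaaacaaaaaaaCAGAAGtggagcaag
AT1G11860 (chr1:4001778-4001809, plus strand): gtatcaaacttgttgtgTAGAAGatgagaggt
SVR3 (chr5:4398215-4398246, plus strand): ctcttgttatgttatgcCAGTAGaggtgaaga
AT4G32760 (chr4:15803139-15803170, plus strand): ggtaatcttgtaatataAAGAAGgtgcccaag
PRXQ (chr3:9525469-9525500, plus strand): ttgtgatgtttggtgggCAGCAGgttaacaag
FEI1 (chr1:11252736-11252767, plus strand): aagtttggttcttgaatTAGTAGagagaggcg
DRH1 (chr3:213201-213232, minus strand): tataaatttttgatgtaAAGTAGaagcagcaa
AT5G16030 (chr5:5238660-5238691, plus strand): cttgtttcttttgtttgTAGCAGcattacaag
RCD1 (chr1:11615382-11615413, plus strand): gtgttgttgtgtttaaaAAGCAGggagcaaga
PSBQA (chr4:11335072-11335103, plus strand): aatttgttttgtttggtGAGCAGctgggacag

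The use of the upstream acceptor in these 10 sites covered nearly the whole scale. In wild type the mean included share was 98.5% ± 0.528 in AT1G11860, which encodes the T-protein of glycine cleavage, and 87.4% ± 1.22 in AT4G39200, a ribosomal protein S25 gene (SD, n = 3 here and for the other shares). It was 76.9% ± 0.941 in *SVR3*, 58.3% ± 3.85 in AT4G32760, 53.3% ± 1.91 in *DRH1*, a DEAD-box RNA helicase, and 49.8% ± 4.78 in the receptor-like kinase gene *FEI1*. The downstream acceptor was the more used one in *RCD1* (28.4% ± 2.77), AT5G16030 (11.5% ± 0.823) and *PRXQ*, a chloroplast peroxiredoxin (7.74% ± 0.494). In *PSBQA*, a subunit of the oxygen-evolving complex of photosystem II, the upstream GAG took 0.692% ± 0.872 of the reads. In *prp40c-1* the means of these sites were within 5.27 percentage points of the wild-type means.

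Over all sites 3 bases apart, the share of the upstream acceptor was ordered by the base before the AG at either acceptor. With CAG upstream and AAG downstream the median share in wild type was 87.6% (n = 31 sites, 30 of them above 50%), with TAG upstream and AAG downstream 83.8% (n = 13), and with CAG upstream and TAG downstream 74% (n = 18). Where the 2 triplets were the same, the medians lay near the middle of the scale, at 60.03% for AAG (n = 10), 57.4% for CAG (n = 65) and 53.8% for TAG (n = 19). With AAG upstream and TAG downstream the median was 44.8% (n = 5), and with CAG as the downstream triplet the medians were lower, at 36.7% with TAG upstream (n = 57, 17 of them above 50%) and 24.2% with AAG upstream (n = 14, 3 above 50%). Single sites departed from these medians by wide margins, and sites with CAG at each acceptor ran from 7.74% to 93.5%.

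The order of the 9 groups was the same in *prp40c-1*, with medians of 85.9% for CAG then AAG, 81.7% for TAG then AAG, 72.5% for CAG then TAG, 36.8% for TAG then CAG and 25.8% for AAG then CAG. The medians for identical triplets were 59.3% for AAG, 55.5% for CAG and 55.1% for TAG, and 42.8% for AAG then TAG. In each of these groups the medians of the genotypes differed by 2.09 percentage points or less, and these are descriptions over sites, with no test. In the 6 libraries, the median for CAG then AAG ran from 86.1% to 88.2% and that for TAG then CAG from 33.2% to 36.8%. The range was 79.9% to 85.5% for TAG then AAG, 67.9% to 76.7% for CAG then TAG, 39.2% to 52.9% for AAG then TAG and 24.9% to 30.2% for AAG then CAG. For identical triplets it was 53.6% to 67.1% with AAG, 53.0% to 57.7% with CAG and 50.0% to 57.8% with TAG, and the order of these 3 groups was not the same in every library. Among sites more than 3 bases apart, AAG then CAG also had a low median in wild type, 28.4% (n = 40), but TAG then CAG had 61.1% (n = 112). The pyrimidine content before the upstream acceptor had a Spearman rho of -0.05 with the wild-type share over the 238 sites 3 bases apart.

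**Figure D2:**
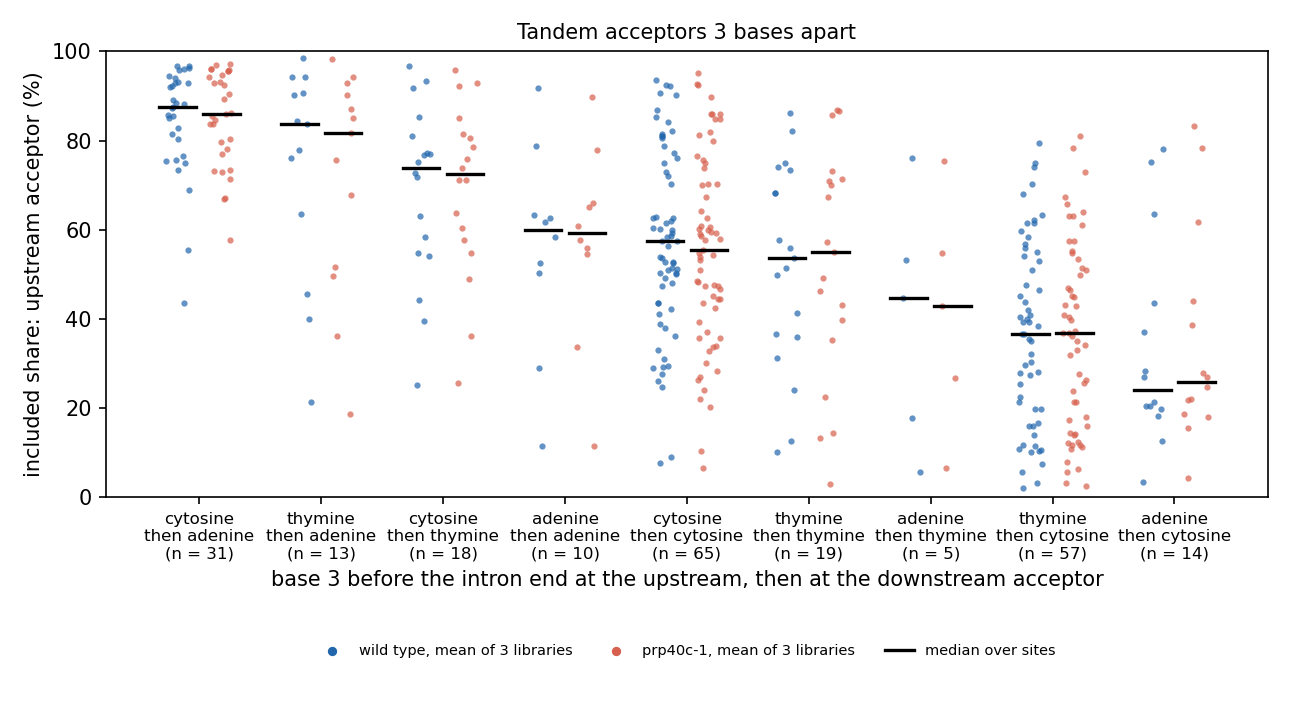
Mean included share in percent (vertical axis) of the tandem acceptors 3 bases apart, grouped by the base that precedes the AG at the upstream and then at the downstream acceptor (horizontal axis), for groups of at least 5 sites. Points are sites, blue for wild type and red for *prp40c-1*, and black lines are medians over sites, which fall in wild type from 87.6% with cytosine then adenine to 24.2% with adenine then cytosine.

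The distance between the acceptors went with the share as well. The wild-type median was 57.2% at 3 bases (n = 238), 69.9% at 4 or 5 bases (n = 58) and 78.8% at 6 bases (n = 60), where the upstream acceptor had more than 61.1% of the reads in 3 of every 4 sites. It was 58.9% at 7 or 8 bases (n = 23) and 67.5% at 9 bases (n = 25). It was 48.5% at 10 to 20 bases (n = 93), 63.9% at 21 to 50 bases (n = 61) and 38.5% beyond 50 bases (n = 31). In *prp40c-1* the medians for these classes were 57.5, 70.6, 80.9, 55.0, 61.7, 48.8, 67.0 and 42.5%. In coding sequence the wild-type median was 62.7% for the 320 sites that keep the frame and 58.9% for the 71 that shift it, and in *prp40c-1* 62.8% and 57.3%.

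Taken over the 664 sites, the median included share in the 3 wild-type libraries was 57.7, 60.2 and 57.7%, and in the 3 *prp40c-1* libraries 58.6, 58.0 and 58.0%. Thus the libraries of the genotypes overlapped. In wild type 27 sites had a mean share below 5%, 599 a share from 5 to 95% and 38 a share above 95%, and the included form was the more used one at 393 sites (59.2%). Sites had 85 to 64814 reads over the 6 libraries, with a median of 790.5. The correlation of the mean shares of the genotypes over sites was r = 0.97 (n = 664 sites, a description, since sites share libraries). Between single libraries it ran from 0.919 to 0.951 within a genotype and from 0.919 to 0.937 between genotypes. Shares varied beyond the counting error of the reads. The chi-square divided by its degrees of freedom was 2.59 to 3.47 over the sites between libraries of 1 genotype, and 2.90 to 3.54 between libraries of different genotypes.

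**Figure D3:**
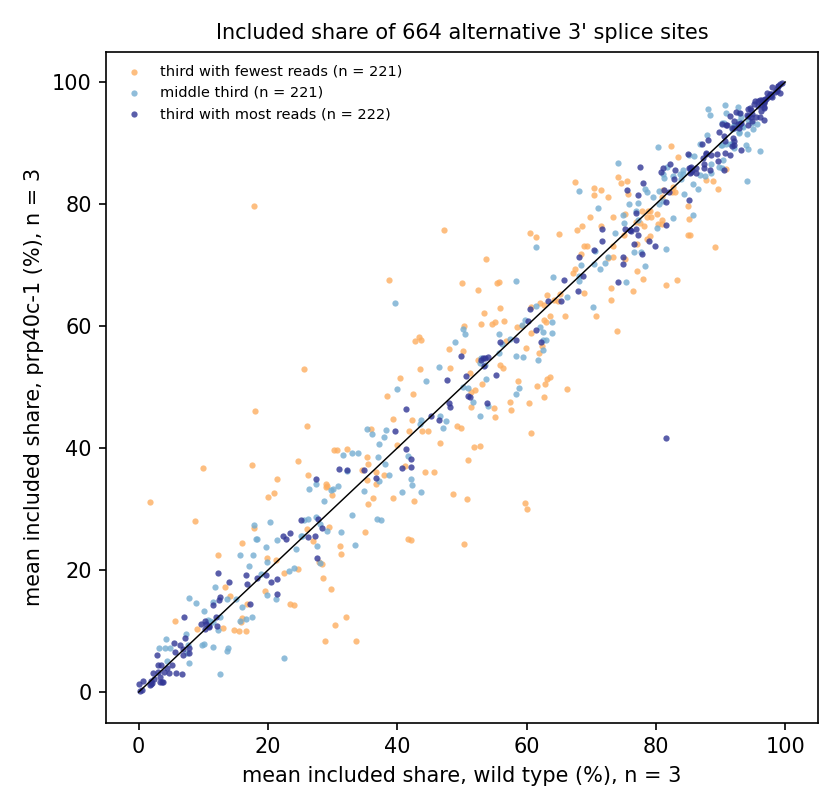
Mean included share in *prp40c-1* against that in wild type, in percent, for the 664 sites, coloured by the number of junction reads. The points lie along the diagonal, and of the 74 sites that differ by more than 10 percentage points, 66 are in the group with the fewest reads.

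The size of the differences followed the depth. Between the mean shares of the genotypes the median absolute difference was 2.92 percentage points. It was 6.39 points in the 221 sites with the fewest reads (85 to 512), 3.15 points in the next 221 and 1.28 points in the 222 sites with the most reads (1277 to 64814). A difference of more than 10 points occurred at 66, 7 and 1 of these sites. The SD within wild type fell in the same order, with medians of 7.32, 4.14 and 1.74 points.

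The included and excluded reads were tested for a change in their ratio between genotypes by edgeR's quasi-likelihood test, with p-values adjusted over the 1095 alternative 3′ and 5′ splice sites and skipped exons that passed the same minimum. One of the 664 sites passed the threshold (adjusted p below 0.15 and absolute log2 change above 0.58), in *WLIM2b*, which is 0.151% of the sites beside a background of 0.183% of all 1095 events. At an unadjusted p below 0.05 there were 35 sites, 19 with a higher and 16 with a lower included share in *prp40c-1*, or 5.27% beside 7.4% of all events. The libraries of the genotypes did not overlap at 83 sites, 42 higher and 41 lower, or 12.5% beside 14.4% of all events. The median log2 change was 0.01 over the sites, -0.07 over 290 alternative 5′ splice sites and -0.09 over 141 skipped exons. Apart from *WLIM2b* the smallest adjusted p was 0.34. The 95% interval of the log2 change lay within 1 unit of 0, a 2-fold change of the ratio, at 190 sites (28.6%), and at the remaining sites a change of that size was not excluded by the interval.

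The site of *WLIM2b* (AT3G55770), a gene for a LIM domain protein, was the one that passed the test, and its included form was rare in either genotype. Wild-type libraries had 0, 0 and 0 included reads and *prp40c-1* libraries 8, 16 and 17. The site thus met the minimum of 5 included reads only through *prp40c-1*, as 1 of 9 sites with a wild-type mean under 5 included reads, while 10 sites met it only through wild type. Excluded reads numbered 1108, 966 and 962 in wild type and 987, 1046 and 1165 in *prp40c-1*. The included share of the pooled *prp40c-1* reads was 1.27% (exact binomial 95% interval 0.91 to 1.71%). The 0 of 3036 reads in wild type allows a share of up to 0.0988%, counted against 3 reads over all wild-type libraries. The pooled share in *prp40c-1* was 12.8 times this limit, a ratio that leaves out the error of the *prp40c-1* share. The limit and the interval cover counting error only. At 13 sites, described below, 1 form had 0 reads in a library and at least 20 in another of the same genotype. Whether the zeros of *WLIM2b* are of that kind was not tested. The adjusted p was 0.0254 by edgeR's test, and the level of the gene did not pass the test (log2 fold change 0.23, adjusted p = 0.0894 by edgeR). The acceptors lie 83 bases apart on chromosome 3, at 20704591 and 20704674, the upstream one is not an exon start in the RefSeq annotation, and the excluded reads also include a junction from 20704500 to 20704876. The window below shows the AAG and TAG triplets in capitals and the stretch that the included form keeps between them.
WLIM2b (chr3:20704571-20704682, plus strand): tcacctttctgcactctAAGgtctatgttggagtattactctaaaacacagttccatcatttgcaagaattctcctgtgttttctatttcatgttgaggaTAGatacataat

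The largest increases in mean included share among sites with an unadjusted p below 0.05 and no overlap of the libraries were in *GRP-3*, *ARP9*, *PUT2*, AT1G55830, AT2G28940, AT2G26210, AT3G54750 and AT2G25625. Unadjusted p-values chose these sites, and none of them passed the adjusted test. In *PUT2*, which encodes a polyamine uptake transporter, the acceptors are 67 bases apart at the edge of the coding sequence, and the share was 38.9, 43.2 and 33.9% in wild type and 56.4, 79.4 and 66.7% in *prp40c-1*. The log2 change was 1.69 (standard error 0.556, adjusted p = 0.502 by edgeR). In AT1G55830, a coiled-coil protein gene with acceptors 23 bases apart, the share was 24, 15 and 14.8% in wild type and 43.3, 47.6 and 47.1% in *prp40c-1*, with 140 reads over the 6 libraries. In AT2G28940, a protein kinase gene with 130 reads, it was 17.4, 0 and 12.5% against 30.8, 43.5 and 35.7%. The sites of AT1G55830, AT2G28940, AT2G26210 and *ARP9* had a mean under 5 included reads in wild type and met the minimum only through *prp40c-1*.

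AT2G25625 is a tandem acceptor 3 bases apart with TAG at each acceptor, and its share was 76.3, 75 and 71.1% in wild type and 90.2, 82.5 and 87.6% in *prp40c-1*. The log2 change was 1.21 (standard error 0.384, adjusted p = 0.502 by edgeR). In AT2G26210, an ankyrin repeat gene with acceptors 68 bases apart, the wild-type mean was 8.77% ± 6.84 and the mutant mean 28.0% ± 7.4, and in AT3G54750, with acceptors 18 bases apart in the 5′ UTR, they were 68.1% ± 5.4 and 82.2% ± 7.01. In *ARP9*, an actin-related protein gene whose 2 junctions do not share a donor, the included reads were 0, 3 and 0 in wild type and 14, 23 and 7 in *prp40c-1*, beside 55, 56 and 53 and 54, 20 and 29 excluded reads. The adjusted p of *ARP9* was 0.34 by edgeR and 0.0249 by DESeq2.

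The largest decreases under the same rule were in *DIN10*, AT4G17410, AT5G57565, AT1G16810, *TPK2*, AT5G57860, AT4G31880 and *SPHK1*. The tandem acceptor of AT4G31880, 3 bases apart with CAG upstream and AAG downstream, had a share of 94.4, 93.6 and 94.3% in wild type and 82.9, 79.3 and 89.2% in *prp40c-1*, a log2 change of -1.60 (standard error 0.402, adjusted p = 0.34 by edgeR). In *TPK2*, a thiamine pyrophosphokinase gene with acceptors 6 bases apart, the share was 79.3, 84.8 and 85.7% in wild type and 65, 62.5 and 75% in *prp40c-1* (log2 change -1.24, standard error 0.507, adjusted p = 0.589 by edgeR). In AT4G31880 and *TPK2* the upstream acceptor was the more used one in every library of the 2 genotypes.

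In AT4G17410, a CAG tandem with 206 reads, the upstream acceptor was the more used one in each wild-type library and in 1 of the *prp40c-1* libraries. Its share was 64.5, 58.3 and 57.1% in wild type and 52.6, 14.9 and 22.6% in *prp40c-1*. In AT5G57860 the share was 62.8, 61.5 and 63.6% against 50.0, 52.4 and 42.9%. In *SPHK1*, which encodes a sphingosine kinase, the wild-type mean was 12.5% ± 7.63 and that of *prp40c-1* 3.00% ± 3.01, and the site met the minimum of 5 included reads only through wild type. The site of AT5G57565 has a shared acceptor and 2 donors, and had 142 reads and mean shares of 50.3% ± 14.7 and 24.2% ± 6.40.

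**Figure D4:**
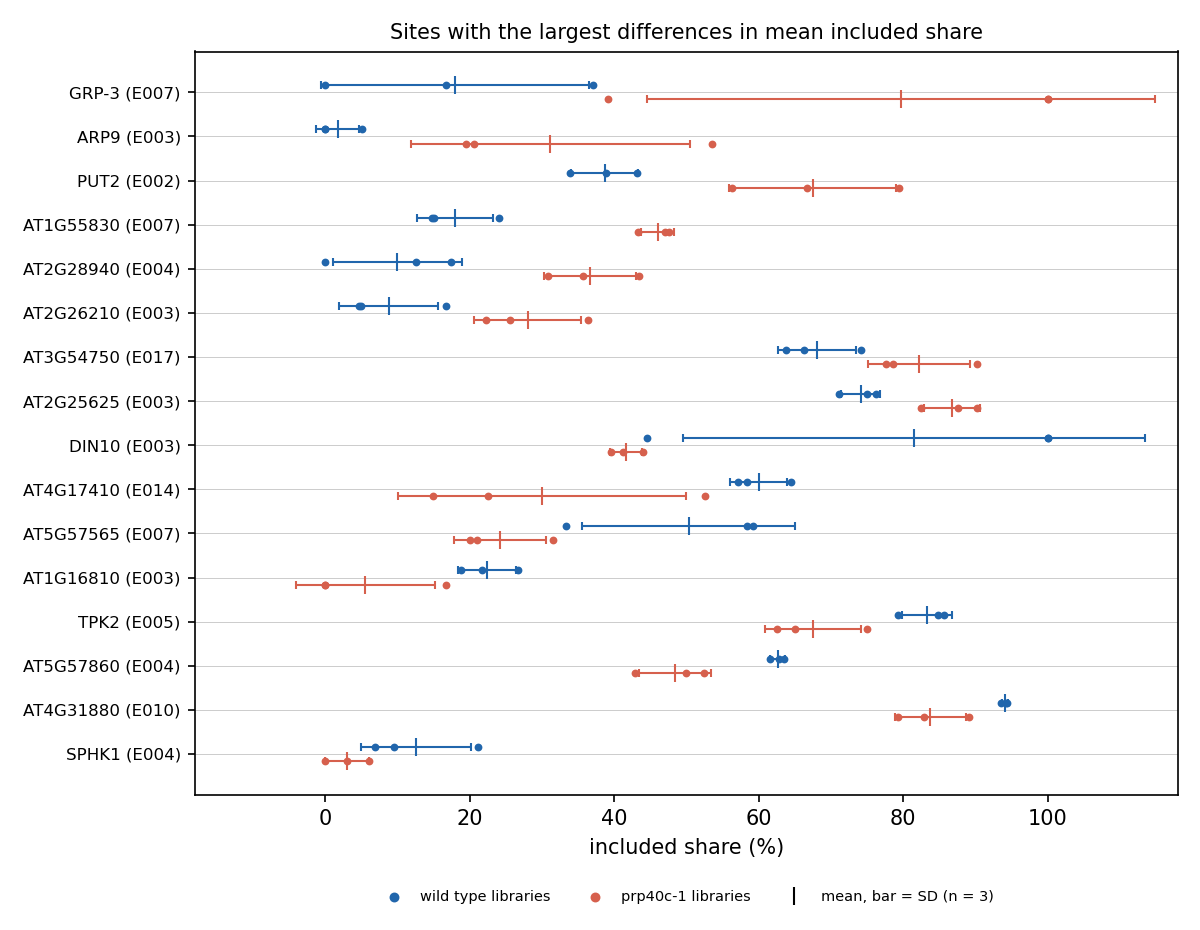
Included share in percent (horizontal axis) in each library of the 8 sites with the largest increase and the 8 with the largest decrease in mean share. The ranking is among sites with an unadjusted p below 0.05 and no overlap of the libraries, and other sites can differ by more. Blue is wild type and red *prp40c-1*, with the mean (tick) and SD (bar, n = 3). The groups do not overlap by the rule that chose them, and *GRP-3*, *DIN10* and AT1G16810 each have libraries at 0 or 100% beside others far from these values.

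Some junctions were counted in an all-or-none way within a genotype. At 13 of the 664 sites (1.96%) 1 form had 0 reads in a library while another library of the same genotype had at least 20. In *PSBQA* the included reads were 40, 0 and 222 in wild type and 54, 239 and 222 in *prp40c-1*, beside 9283 to 13061 excluded reads in each library. In *CA2*, a carbonic anhydrase gene, the excluded reads were 71, 33 and 0 in wild type and 67, 74 and 85 in *prp40c-1*, and in AT5G11500 they were 58, 66 and 0 and 51, 42 and 41. The library with no reads was wild-type replicate 2 in *PSBQA* and wild-type replicate 3 in *CA2* and AT5G11500. Over the 664 sites, 0 excluded reads were counted at 1, 0 and 7 sites of the respective wild-type replicates and at 5, 6 and 6 sites of those of *prp40c-1*. For 0 included reads the counts were 3, 3 and 3 sites in wild type, against 7, 6 and 3 in the mutant.

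Of the 16 sites named above as the largest increases and decreases under that rule, *GRP-3* and *DIN10* showed this pattern. In *GRP-3*, a glycine-rich protein gene, the included reads were 0, 10 and 53 in wild type and 34, 39 and 48 in *prp40c-1*, and the excluded reads 48, 50 and 90 and 53, 0 and 0. In *DIN10*, a raffinose synthase family gene, the included reads were 83, 66 and 107 in wild type and 146, 130 and 146 in *prp40c-1*, and the excluded reads 0, 82 and 0 and 223, 185 and 186. Wild-type replicate 2, the one with excluded reads, had a share of 44.6%, and the *prp40c-1* libraries 39.6, 41.3 and 44.0%. Without it the adjusted p of *DIN10* fell from 0.601 to 0.00109 by edgeR. AT1G16810, with included reads of 19, 31 and 15 in wild type and 0, 0 and 17 in *prp40c-1*, likewise passed, of the alternatives run, only without *prp40c-1* replicate 3 (adjusted p = 0.0233 against 0.601 by edgeR). The reason for the zeros was not tested.

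The windows of *GRP-3* and *DIN10* are shown because each has an unusual intron end. The former ends in GAG at each acceptor inside a repeat of the coding sequence, and the upstream acceptor of the latter ends in AT. Capitals mark the last 3 bases of the intron in each form.
GRP-3 (chr2:2026693-2026742, plus strand): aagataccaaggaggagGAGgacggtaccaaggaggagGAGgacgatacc
DIN10 (chr5:6833969-6834013, plus strand): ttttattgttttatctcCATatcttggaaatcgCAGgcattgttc

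The 6 sites with the most reads and a wild-type share from 5 to 95% were as follows. In AT4G39200 (25324 reads) the share was 86.0, 88.0 and 88.1% in wild type and 87.4, 85.3 and 85.1% in *prp40c-1*, a log2 change of -0.18 with a 95% interval of -0.63 to 0.27. In *PRXQ* (22090 reads) it was 7.29, 7.65 and 8.27% against 7.03, 6.16 and 6.14%, a log2 change of -0.28 (-0.72 to 0.15). The libraries of *PRXQ* did not overlap, by 0.26 points, and those of AT4G39200 did. In *RPE*, the ribulose-phosphate epimerase of the Calvin cycle, the means were 85.6% ± 2.14 and 85.6% ± 1.05, in *HMGB2*, a high mobility group protein, 90.6% ± 0.69 and 91.1% ± 0.374, and in *SAM1*, an S-adenosylmethionine synthetase with its site in the 5′ UTR, 10.9% ± 0.676 and 10.8% ± 0.573. AT2G19730, a ribosomal L28e gene, had shares of 39.6, 38.0 and 41.1% in wild type and 42.5, 43.1 and 42.9% in *prp40c-1*, which did not overlap, with a log2 change of 0.19 (-0.20 to 0.58). Among the sites 3 bases apart, *emb1138*, a chloroplast DEAD-box helicase, followed with 76.5% ± 1.49 and 73.4% ± 1.11, and *DRH1* with 53.3% ± 1.91 and 54.7% ± 1.66. None of these 8 sites passed the test, and their intervals of the log2 change lay within 1 unit of 0.

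Genes of the splicing machinery and of the clock are known to be alternatively spliced in plants, and SR proteins, which bind exonic and intronic enhancers, often adjust their own transcripts in this way. Of 48 genes in the lists used here, 9 held 11 of the 664 sites, and none of the 11 was called, had an unadjusted p below 0.05 or had libraries without overlap between genotypes. The 19 genes of the SR family held 8 sites in 6 genes, with a median log2 change of -0.15, beside 0.01 over all 664 sites. The 9 genes for acceptor recognition and PRP40 proteins held 1 and the 8 clock genes 2, whereas the lists of U1 snRNP proteins, of glycine-rich and polypyrimidine tract-binding proteins and of flowering-time RNA-binding proteins held none.

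*SR45*, an RNA-binding protein that interacts with U2AF and U1 components, has acceptors 21 bases apart whose use distinguishes its 2 known isoforms. The share of the upstream acceptor was 71.1, 75.6 and 80.1% in wild type and 83.3, 79.7 and 83.9% in *prp40c-1*, and the highest wild-type library lay above the lowest mutant library. The log2 change was 0.59 (95% interval -0.09 to 1.27, adjusted p = 0.763 by edgeR), and the log2 fold change of the level of the gene was 0.01.

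The paralogs *RS2Z32* and *RS2Z33*, SR proteins with zinc knuckles, have acceptors 218 bases apart with AAG upstream and CAG downstream. In *RS2Z32* the share was 11.5, 15 and 10.3% in wild type and 28.1, 15.6 and 14.9% in *prp40c-1*, of which 1 mutant library was high and the others lay at the edge of wild type (log2 change 0.80, 95% interval -0.05 to 1.65). In *RS2Z33* it was 3.56, 6.85 and 10.1% against 6.16, 6.89 and 5.36% (log2 change -0.12, interval -1.02 to 0.79). In *SR30* and *SR34*, which have acceptors 338 and 353 bases apart, the mean shares were 30.8% ± 7.27 and 10.3% ± 5.12 in wild type and 33.8% ± 6.35 and 11.6% ± 0.103 in *prp40c-1*. A second site of *SR34*, with acceptors 4 bases apart in the 5′ UTR, had 77.6% ± 5.46 and 72.2% ± 8.11. The tandem acceptors of *SCL33* (29.2% ± 1.41 and 26.3% ± 3.16) and *RS41* (20.5% ± 0.746 and 18.1% ± 2.63), each 3 bases apart, were the least variable of the list in wild type. The other site of *RS41*, with 2 donors, had 4.39% ± 2.39 and 3.92% ± 2.46.

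Among the clock genes, *LHY* had a tandem acceptor with TAG then CAG, with shares of 56.6, 63.7 and 69.9% in wild type and 60.8, 65.9 and 65.3% in *prp40c-1*. *RVE8*, a MYB-like activator of evening genes, had acceptors 22 bases apart and shares of 37.0, 54.7 and 33.3% in wild type and 47.5, 33.5 and 34.9% in *prp40c-1* (log2 change -0.18, 95% interval -1.10 to 0.73). *LCL1*, a paralog of *RVE8* singled out here after its values were seen, also had acceptors 22 bases apart. Its shares were 76.6, 76.5 and 79.6% in wild type and 82.1, 88.1 and 88.0% in *prp40c-1*, with no overlap (log2 change 0.85, unadjusted p = 0.0108, adjusted p = 0.502 by edgeR). The 2 windows below show the paired stretch of these genes. Compared position by position without gaps, 17 of the 22 bases between the acceptors were identical, and 9 of the 20 bases that end with the upstream triplet. A run of bases that is shifted between the genes, as in the stretch before the upstream triplet, is not aligned by this count. The triplets, in capitals, were TAG and CAG in either gene. The upstream acceptor was the major one in each library of *LCL1*. In *RVE8* it was the minor one in each library but wild-type replicate 2, where its share was 54.7%. The window of *SR45* follows for comparison.
RVE8 (chr3:2948136-2948186, plus strand): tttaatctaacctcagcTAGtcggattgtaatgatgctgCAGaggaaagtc
LCL1 (chr5:651142-651192, plus strand): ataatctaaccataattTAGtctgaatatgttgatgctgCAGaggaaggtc
SR45 (chr1:5677347-5677396, minus strand): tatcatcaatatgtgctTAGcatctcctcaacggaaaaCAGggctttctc

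**Figure D5:**
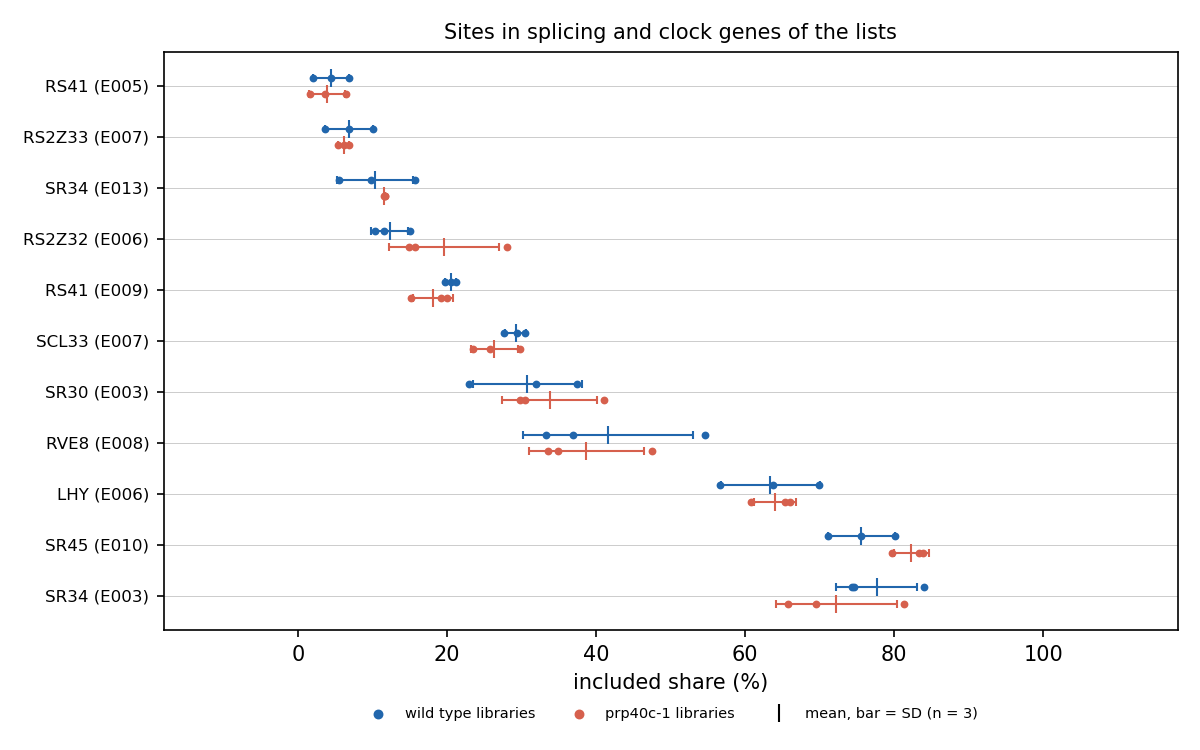
Included share in percent (horizontal axis) in each library of the 11 sites in genes of the splicing and clock lists, blue for wild type and red for *prp40c-1*, with the mean (tick) and SD (bar, n = 3). The libraries of the genotypes overlap at each of the 11 sites, and the sites range from 4.39% in *RS41* to 77.6% in *SR34* in wild type.

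The genes that hold the sites were also compared for their level, where in whole seedlings fewer cells of a type and less RNA per cell cannot be told apart. All 625 were tested, and 9 passed the threshold of edgeR's test on gene counts (adjusted p below 0.05 and absolute log2 fold change above 0.58), 7 higher and 2 lower in *prp40c-1*. This is 1.44%, beside 3.67% of the 22182 genes tested, and the median log2 fold change of the 625 was 0.02. *LHY* rose from 61.1 ± 9.67 to 93.8 ± 7.79 CPM (log2 fold change 0.62, adjusted p = 5.93e-04 by edgeR), while the mean share at its acceptor was 63.4% and 64.0%. *PIL6*, a basic helix-loop-helix factor of light signaling, rose from 76.9 ± 2.72 to 137 ± 21.9 CPM, with a mean share of 87.5% and 86.5%. *DIN10* rose from 259 ± 40.1 to 455 ± 57.8 CPM. The other increases were in *OTS2*, AT4G01330, *PLPB* and AT3G54500, by 0.63 to 0.73 on the log2 scale.

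*MEB1*, a membrane protein of the ER body, fell from 41.5 ± 6.17 to 5.96 ± 1.95 CPM (log2 fold change -2.79, adjusted p = 6.82e-08 by edgeR), and AT3G56210 from 28.7 ± 2.75 to 17 ± 1.43 CPM. In *MEB1*, with acceptors 45 bases apart, the included reads were 50, 39 and 36 in wild type and 0, 0 and 2 in *prp40c-1*, and the excluded reads 108, 82 and 61 and 8, 3 and 6. The site met the minimum of 5 included reads only through wild type. With so few reads in the mutant a change in the share was not detectable at this depth (unadjusted p = 0.0588, adjusted p = 0.727 by edgeR).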

How the data were processed

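Poly(A) RNA of whole seedlings was sequenced as paired reads from TruSeq libraries, mapped by the authors to TAIR10 with TopHat2 2.1.1, and counted per gene and junction with custom R scripts (SAMtools 1.3 is named in the submitters' processing notes). The deposited counts are raw. Neither strand nor multiple mapping is described in the sources used here, and counts of paralogs and overlapping genes are therefore uncertain. The authors' pooled inclusion values per genotype, 2 further columns of the table, were not used.

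Included and excluded junction reads were fitted with edgeR 4.0.16 (R 4.3.3) as read type by genotype with 1 effect per library and equal library sizes, over 1095 events. Gene counts averaging 10 or more in a genotype were fitted with TMM factors, which also scaled the CPM. Tables were made with Python 3.11.15. The procedure was checked on simulated counts with known changes and a fixed dispersion. Junctions counted in an all-or-none way were not simulated, so the check does not cover them. Named sites were those called, the 8 largest increases and 8 largest decreases at p below 0.05 without overlap, those in listed genes (1 further list is not reported here), the 6 with most reads (also among pairs 3 bases apart), and those at the edge of the minimum. The sites and lists were chosen with earlier results of these data known. Symbols and sequences come from RefSeq (TAIR10.1). Errors are SD over 3 libraries, and intervals from counts cover counting error only.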

Additional observations from a re-analysis of the deposited data

How the results depend on the processing

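The site of *WLIM2b* was called under every alternative that tested it. Each alternative drew on the same counts, in which no wild-type library had an included read, so the agreement does not test those zeros. The number of called sites was 1 with a minimum mean of 10 reads, with column totals or TMM factors, with an FDR below 0.05 and with no limit on the log2 change. It was 3 with no minimum (*WLIM2b*, *PYM* and *BMY2*), 2 by DESeq2 (with *ARP9*), and 0 among the 591 simple sites, which do not include *WLIM2b*. With single libraries left out it ran from 1 to 3, with 2 without wild type replicate 2 (*DIN10*) and 3 each without *prp40c-1* replicate 2 (AT4G24350, AT5G49210) and replicate 3 (AT1G16810, *FNR1*). With the replicate number as a block it was 3 (*WLIM2b*, *ARP9* and *GRP-3*). The deviations of same-numbered libraries had r = 0.02, 0.01 and 0.01 over the tested events, and -0.01, 0.07 and 0.03 over gene levels. Between libraries of different number, r ran from -0.05 to 0.04 over events and from -0.08 to 0.05 over gene levels. Whether same-numbered samples shared a harvest or batch cannot be told from these values. Sites at an unadjusted p below 0.05 numbered 28 to 45 over all alternatives. A minimum of 10 reads gave median shares of 55.7% (wild type) and 54.7% (*prp40c-1*), and the simple sites 60.5% and 59.6%. Leaving out single *prp40c-1* libraries gave 56.9 to 58.5%. Host genes called numbered 78 with no limit on the fold change and 8 to 14 with single libraries left out (14 without *prp40c-1* replicate 1). The share over all genes at these settings is not given here, so these counts are not read as high or low. The log2 fold change of *PRP40C* stayed between -1.04 and -0.88. Among the named sites, 14 of 460 values under alternatives turned direction, all of them of uncalled sites, in *LHY*, *RPE*, *RS2Z33*, *RS41*, *RVE8*, *SAM1*, *SR30* and *SR34*. Depth limits the sites with few reads, and groups of 3 libraries were too small for a test of single outlying libraries.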

Other observations

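Of the 35 sites at an unadjusted p below 0.05, several with many reads lay outside the rule for named sites and are given here after their values were seen. In AT4G10480, a tandem acceptor with AAG then GAG and 6632 reads, the share was 97.5, 98.6 and 97.9% in wild type and 99.4, 99.3 and 99.0% in *prp40c-1*. In *ELF5*, a regulator of flowering time whose acceptors lie 18 bases apart, it was 96.5, 93.6 and 98.1% against 89.3, 89.8 and 86.9%. The sites of *APX1* and AT5G14260, with a shared acceptor and different donors, also had libraries without overlap. *APX1*, a cytosolic ascorbate peroxidase, had 6.49, 4.87 and 4.89% against 8, 9.66 and 6.60%, and AT5G14260 had 7.03, 7.21 and 6.82% against 10.2, 12.9 and 14.0%. None of the 4 passed the adjusted test.

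With no minimum of reads, 2 sites outside the 664 were also called. In *PYM* the excluded reads were 16, 14 and 7 in wild type and 0, 0 and 0 in *prp40c-1*, beside 82 to 143 included reads. In *BMY2* they were 0, 0 and 0 in wild type and 7, 7 and 6 in *prp40c-1*, beside 24 to 63 included reads.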
